A study of Homo sapiens with 24 samples.

Results

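Retinoid metabolism and response were followed through 10 genes among the 60279 counted in SW872 human liposarcoma cells: STRA6, CRABP2, DHRS9, RDH10, DHRS3, ALDH1A1, ALDH1A2, ALDH1A3, RARB and CYP26B1. They were looked up by Ensembl identifier in the count table of every library. DHRS9 was chosen by its counts in the YAP-TFE3 cells against empty vector, and the other genes because they act in the same pathway. The levels of DHRS9, and every value of YAP-TFE3 against empty vector, are therefore given as a description, and no p-value is drawn from that comparison.

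Cells take up retinol, bound to its plasma carrier, through the membrane receptor STRA6. Short-chain dehydrogenases such as RDH10 and DHRS9 oxidise retinol to retinal, whereas DHRS3 reduces retinal back to retinol, and the retinaldehyde dehydrogenases ALDH1A1, ALDH1A2 and ALDH1A3 make retinoic acid. CRABP2 carries the acid to nuclear receptors, of which RARB is itself a classical target of retinoic acid, and CYP26B1 hydroxylates the acid for clearance. In fat cell precursors, retinoic acid added early is known to hold back differentiation.

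SW872 is an established liposarcoma line. RNA was sequenced from 24 libraries, 3 in each of 8 groups, from stable lines made in triplicate with the retroviral vector pBabeNeo, each a pool of G418-selected cells rather than a single clone. EV carried the empty vector; TAZ-CAMTA1 and YAP-TFE3 carried the fusion proteins of epithelioid hemangioendothelioma; TAZ4SA and YAP5SA carried TAZ or YAP with LATS-phosphorylated serines replaced by alanine; and TFE3 carried the full-length transcription factor. By the labels, these lines were collected 48 hours after reaching confluence, whereas the cells with full-length CAMTA1 and their own empty-vector control, EVsub, were collected below confluence, so that EVsub against EV compares the growth states. No retinoid treatment is given in the labels.

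The libraries held 19700277 to 35287476 counts. Values are TMM-scaled CPM (counts divided by the library's scaled total, times 1e+06), given as mean ± SD with n = 3, and a log2 fold change carries its standard error (SE). A change was called when edgeR's quasi-likelihood test gave a Benjamini-Hochberg adjusted p under 0.05 over the 19997 genes that averaged 5 counts or more per library. The transgenes checked the labels: CAMTA1 stood at 144 CPM in TAZ-CAMTA1 and 123 in CAMTA1 against 21.4 in EV and 22.9 in EVsub, TFE3 at 283 in YAP-TFE3 and 336 in TFE3 against 119 in EV, and YAP1 at 253 in YAP5SA against 128 in EV. WWTR1, the gene of TAZ, went against its label, with 134 CPM in TAZ4SA against 204 in EV, and stood at 181 in TAZ-CAMTA1. Among groups with no TAZ transgene, it stood at 126 CPM in YAP-TFE3, 68.7 in YAP5SA, 193 in TFE3, 219 in EVsub and 235 in CAMTA1. A level below EV was thus not particular to TAZ4SA, and its cause was not tested. Each direction drawn below from the TAZ4SA libraries is that of the libraries labelled TAZ4SA. All 5 mesenchymal markers were counted in every group, with summed levels of 919 to 1002 CPM in YAP-TFE3, 1535 to 1644 in EV and 959 to 1739 in the other groups. Of the 7 adipocyte markers, ADIPOQ was at 0 in every library and LEP never passed 3 counts, and the summed level was 304 to 370 CPM in YAP-TFE3, 64.2 to 74.4 in the libraries labelled TAZ4SA, 118 to 132 in YAP5SA, 108 to 113 in CAMTA1 and 149 to 237 in the other groups. The 5 epithelial markers summed to 6.04 to 14.5 CPM in YAP-TFE3 and to at most 4.57 elsewhere, the 4 endothelial markers ran from 22.5 in YAP5SA to 136 in TAZ-CAMTA1, and the 4 blood cell markers summed to 1.20 to 2.57, with PTPRC never above 3 counts. The part of these shifts in the results below was not tested. In bulk RNA, fewer cells with a transcript and less of it per cell cannot be told apart.

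Of the 10 genes, DHRS9 passed the filter on low counts only through YAP-TFE3, ALDH1A1 did not pass it, and the remaining 8 were tested in 10 comparisons, which gave 34 calls. By edgeR none of the 8 was called in TAZ-CAMTA1 against EV, where 3.55% of all genes tested were higher and 1.44% lower, nor in TFE3 against EV, where 0.0350% were higher and 0% lower. In both comparisons, 0 of the 8 had an unadjusted p under 0.05 and 0 were called by DESeq2; over all genes the unadjusted counts were 3574 and 757, and DESeq2 called 1204 and 15. In the libraries labelled TAZ4SA, 1 of the 8 rose against EV (25.1% of all genes tested rose) and 3 fell (24.2%). In YAP5SA, 1 rose (22.7%) and 3 fell (21.6%). In EVsub against EV, the comparison of growth states, 3 rose (19.8%) and 2 fell (17.1%). In CAMTA1 against EVsub, 1 rose (1.26%) and none fell (0.570%). Between constructs, 3 were higher (26.9%) and 1 lower (26.8%) in TAZ-CAMTA1 than in the libraries labelled TAZ4SA, and 3 were higher (28.1%) and 3 lower (24.3%) in YAP-TFE3 than in YAP5SA. Against TFE3, YAP-TFE3 had 1 higher (25.4%) and 4 lower (22.5%), and TAZ-CAMTA1 against YAP-TFE3 had 4 higher (19.9%) and 1 lower (22.8%). In YAP-TFE3 against EV, the comparison behind the choice of DHRS9, the same threshold put 1 of the 8 higher (25.6%) and 3 lower (22.6%), a count from which nothing is read. Of the 34 calls, 20 held without any 1 library and 14 did not, and the latter are given with each gene. Where groups are said below not to overlap, the share of all genes that separate in this way was not counted. Scaling by total counts alone moved the median of all genes by -0.20 (log2) in the libraries labelled TAZ4SA against EV, by -0.18 in YAP5SA against EV and by 0.20 in TAZ-CAMTA1 against the libraries labelled TAZ4SA, and moved their splits of called genes from 5013 higher and 4835 lower to 3355 and 7318, from 4534 and 4325 to 3135 and 6840, and from 5376 and 5354 to 7486 and 3695. The comparisons with EV share its 3 libraries, and those with YAP-TFE3, YAP5SA or the libraries labelled TAZ4SA share those.

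**Figure D1:**
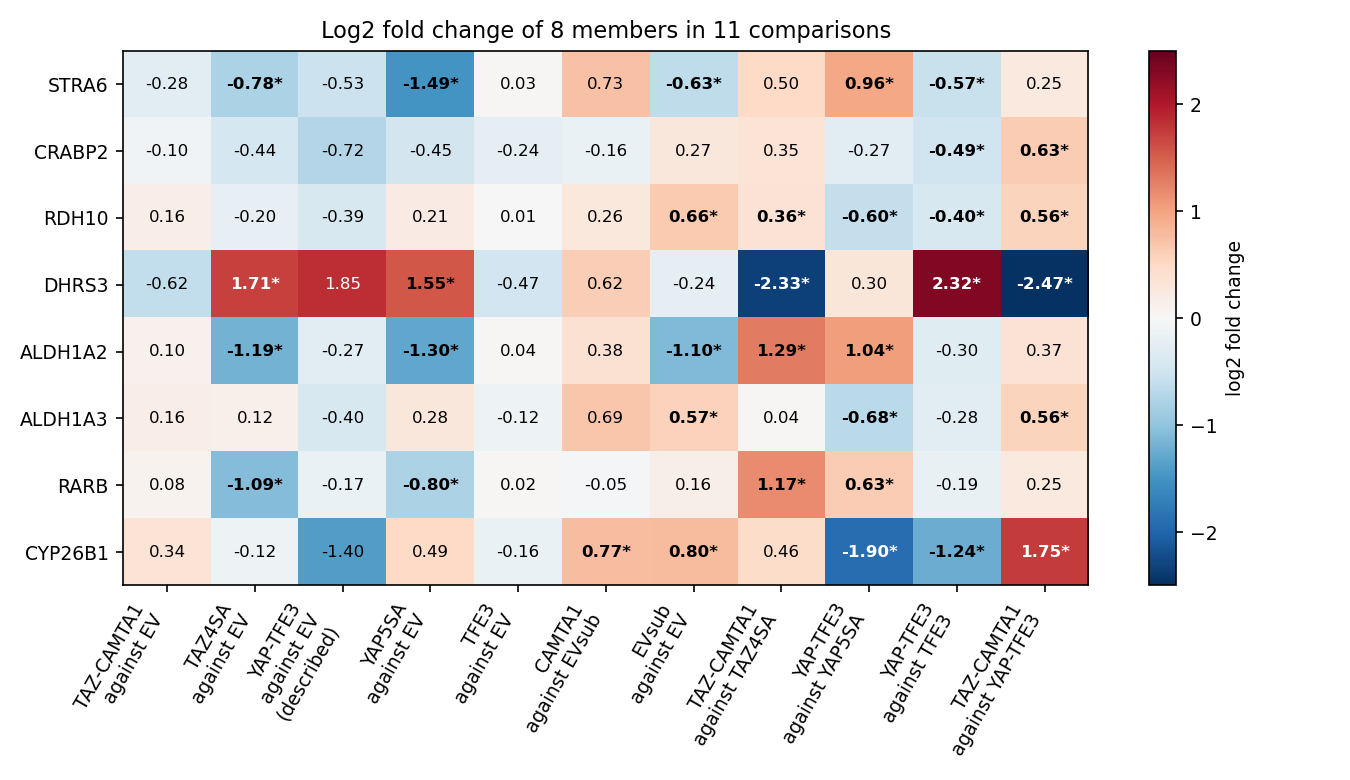
Log2 fold change of the 8 tested genes (rows) in 11 comparisons (columns), coloured from blue (lower) to red (higher), with an asterisk and bold type where the adjusted p was under 0.05. YAP-TFE3 against EV carries no marks because it chose DHRS9 and is only described; DHRS3 holds the most extreme values, 2.32 against TFE3 and -2.47 in TAZ-CAMTA1 against YAP-TFE3.

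DHRS9, a dehydrogenase that oxidises retinol and also 3-hydroxysteroids, was counted in YAP-TFE3 and in no other group. Its counts were 233, 262 and 194 in the 3 YAP-TFE3 libraries, or 7.57, 8.22 and 5.61 CPM. In the other 21 libraries it had 0 counts out of 568582203, which allows up to 0.00528 CPM over all of them. Set against a floor of 3 counts per library, YAP-TFE3 was at least 58.9-fold higher than EV, at least 52.9-fold higher than YAP5SA and at least 77.7-fold higher than TFE3. The groups with YAP5SA or full-length TFE3, whose genes supply the parts of this fusion, had no count. Intervals and floors here cover counting error only. DHRS9 lies at chr2:169064789-169096167 on the plus strand of GRCh38, and no other annotated gene overlaps it.

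Because DHRS9 was read from 1 group only, the sequence before each of its RefSeq starts is shown, as no file tells which start was used. RefSeq (GRCh38.p14) gives 4 promoter windows for DHRS9, each from 250 bases before a start to 50 after it, and the 150 bases before each start read, 5′ to 3′ on the plus strand, as follows.
DHRS9, chr2:169066927-169067076: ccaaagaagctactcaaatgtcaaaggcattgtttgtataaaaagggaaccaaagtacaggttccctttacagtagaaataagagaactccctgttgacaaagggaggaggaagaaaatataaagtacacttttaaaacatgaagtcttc
DHRS9, chr2:169069413-169069562: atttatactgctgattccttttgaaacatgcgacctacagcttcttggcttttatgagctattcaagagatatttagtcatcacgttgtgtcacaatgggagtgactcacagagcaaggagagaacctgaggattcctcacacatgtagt
DHRS9, chr2:169072425-169072574: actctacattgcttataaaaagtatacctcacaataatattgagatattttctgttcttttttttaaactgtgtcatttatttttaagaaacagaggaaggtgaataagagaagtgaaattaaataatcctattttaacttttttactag
DHRS9, chr2:169080957-169081106: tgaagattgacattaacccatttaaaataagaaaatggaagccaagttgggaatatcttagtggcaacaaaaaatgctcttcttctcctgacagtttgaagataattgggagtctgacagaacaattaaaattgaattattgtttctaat
The windows were AT-rich, with 31.3% to 39.3% G and C against a median of 58.7% over all 35116 RefSeq promoters. None of the 4 held, on either strand, the letters GGAATG of the TEAD motif (14.0% of all promoters do), the E-box CACGTG (7.26%), the M-box TCACGTGA or TCATGTGA bound by TFE3 and its relatives (1.97%; the former holds the E-box), or a retinoic acid response repeat. That repeat was searched as GGTCA or GTTCA repeated on the same strand with 6 bases between (DR5, 0.174% of promoters) or 3 (DR2, 0.159%). Sequence outside the windows was not searched, so the lack of a match does not tell whether such a site serves DHRS9.

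The genes whose group means followed DHRS9 most closely were CST2, TMEM144 and LUM, at Euclidean distances of 0.53, 0.995 and 1.09 log2 units over the 8 groups, among 14891 genes compared. CST2, a secreted cystatin, stood at 7.07 CPM in YAP-TFE3 and at most 0.0323 elsewhere. TMEM144 stood at 8.11 against at most 0.0985, and LUM, the matrix proteoglycan lumican, at 5.23 against at most 0.0697. All of these were near 0 outside YAP-TFE3, as DHRS9 was. Their match therefore rests on the level in YAP-TFE3, by which DHRS9 was chosen, and is a description only. Likewise, the aldehyde dehydrogenase ALDH1A1 sat near 0 outside YAP-TFE3. It had 5, 6 and 7 counts in YAP-TFE3, and 0 to 3 in each of the other 21 libraries. The sums were 18 counts in YAP-TFE3 and 17 in all other groups, a ratio of 6.22 after scaling for depth. Its counting interval of 3.02 to 12.8 takes reads, not libraries, as the units, so no test is drawn from it. Against EV alone, with 2 counts, the ratio was 7.02, given only as a description. The sums of the other groups ran from 1 count (EVsub, TAZ-CAMTA1) to 4 (TFE3 and the libraries labelled TAZ4SA).

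**Figure D2:**
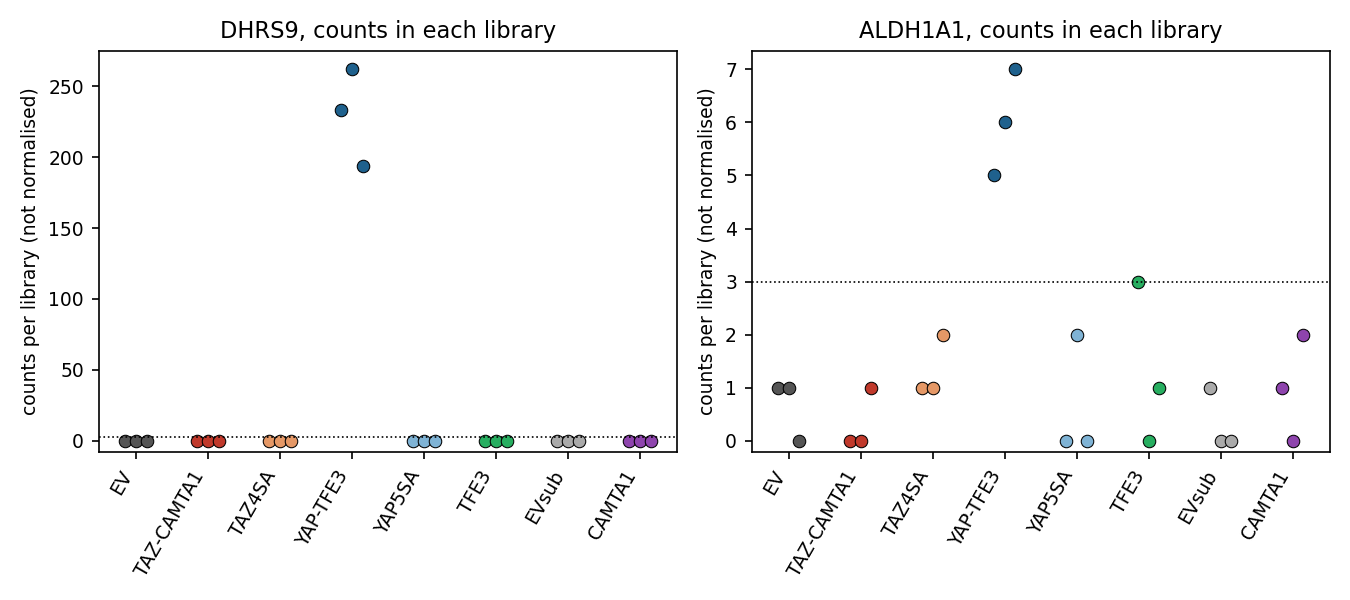
Unnormalised counts of DHRS9 (left) and ALDH1A1 (right) in each library, 3 points a group, with a dotted line at the floor of 3 counts. DHRS9 lies at 194 to 262 in YAP-TFE3 and at 0 in the other 21 libraries, and ALDH1A1 at 5 to 7 in YAP-TFE3 and at 0 to 3 elsewhere.

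DHRS3, which turns retinal back into retinol, was low everywhere and divided the groups. The library counts were 8, 12 and 8 in EV, 10, 4 and 7 in TAZ-CAMTA1, and 7, 9 and 10 in TFE3. They were 47, 50 and 33 in YAP-TFE3, 22, 17 and 35 in YAP5SA, and 31, 24 and 36 in the libraries labelled TAZ4SA. The first set and the second did not overlap. EVsub held 11, 7 and 8 counts, while CAMTA1 spread from 2 to 30, with 0.444 ± 0.414 CPM. In the libraries labelled TAZ4SA, DHRS3 rose 3.28-fold against EV, from 0.374 ± 0.091 to 1.22 ± 0.180 CPM (log2 1.71, SE 0.42, edgeR adjusted p = 0.00179), and in YAP5SA 2.93-fold to 1.08 ± 0.301 (log2 1.55, SE 0.44, edgeR adjusted p = 0.00553). In YAP-TFE3 it stood at 1.35 ± 0.344 CPM, 3.60 times EV. It was 5.0-fold higher in YAP-TFE3 than in TFE3 (edgeR adjusted p = 5.38e-05), whereas the difference from YAP5SA, 0.30 on the log2 scale (SE 0.35), did not pass the test. The fusions lay at opposite ends: DHRS3 was 5.54-fold lower in TAZ-CAMTA1 than in YAP-TFE3 (log2 -2.47, SE 0.43, edgeR adjusted p = 5.35e-05) and 5.04-fold lower than in the libraries labelled TAZ4SA (edgeR adjusted p = 0.00011). All 5 of these calls held when any 1 library was left out. CEBPG, NALF2 and MTHFD2 had the profiles closest to DHRS3, at 0.54 to 0.63 log2 units, and MTHFD2, a mitochondrial folate enzyme, stood at 279 to 344 CPM in the 3 groups where DHRS3 was high and at 70.7 to 90.8 in the others.

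TEAD factors are the known DNA-binding partners of YAP and TAZ, and the DHRS3 promoters are shown because they hold TEAD matches. Among 22 RefSeq promoter windows that matched 9 of the 10 genes (RDH10 had none), 4 held GGAATG on either strand, against 14.0% of all promoters, and DHRS3 held 2 of these. The 150 bases before both starts, on the minus strand of GRCh38.p14, are given with the TEAD match in capitals, CATTCC being GGAATG read on the other strand.
DHRS3, chr1:12596614-12596763: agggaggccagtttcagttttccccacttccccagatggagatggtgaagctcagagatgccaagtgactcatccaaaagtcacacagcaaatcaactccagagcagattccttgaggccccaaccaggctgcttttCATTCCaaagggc
DHRS3, chr1:12616790-12616939: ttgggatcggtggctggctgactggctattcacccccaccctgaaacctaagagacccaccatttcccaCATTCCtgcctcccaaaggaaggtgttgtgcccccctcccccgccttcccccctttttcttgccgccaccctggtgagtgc
A match of letters is no evidence of binding, and the third DHRS3 window, the 5′-most, held none.

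RDH10, the main retinol dehydrogenase of the embryo, was highest below confluence. It stood at 16.4 ± 1.21 CPM in EVsub and 19.7 ± 2.77 in CAMTA1, against 10.4 ± 0.847 in EV, and EVsub exceeded EV in every pair of libraries (log2 0.66, SE 0.13, edgeR adjusted p = 0.000388). It was lowest in YAP-TFE3, at 7.91 ± 1.17 CPM. That was 1.52-fold below YAP5SA (log2 -0.60, SE 0.13, edgeR adjusted p = 0.000443) and 1.47-fold below TAZ-CAMTA1 (edgeR adjusted p = 0.00114). Smaller differences were called but depended on single libraries. In YAP-TFE3 against TFE3, whose libraries overlapped (log2 -0.40, edgeR adjusted p = 0.0131) the call was lost without TFE3 replicate 2 or 3 or YAP-TFE3 replicate 1 or 2 (log2 -0.32 to -0.36, edgeR adjusted p = 0.0503 to 0.073). In TAZ-CAMTA1 against the libraries labelled TAZ4SA (log2 0.36, edgeR adjusted p = 0.021) it was lost without TAZ4SA replicate 1 or 2 or TAZ-CAMTA1 replicate 1 or 3 (log2 0.30 to 0.36, edgeR adjusted p = 0.0511 to 0.0907). An exon of RDH10 overlaps an antisense gene, so reads of the pair may be mixed if the counting ignored strand, which the sources used here do not state.

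Of the aldehyde dehydrogenases, ALDH1A2 fell in YAP5SA and the libraries labelled TAZ4SA, where ALDH1A3 gave log2 0.28 and 0.12 against EV and did not pass the test. ALDH1A2, the enzyme that makes most embryonic retinoic acid, had 24, 24 and 9 counts in EV, 5, 8 and 7 in YAP5SA, and 5, 5 and 14 in the libraries labelled TAZ4SA. YAP5SA lay below EV without overlap, at 0.299 ± 0.074 against 0.726 ± 0.255 CPM (log2 -1.30, SE 0.37, edgeR adjusted p = 0.00579). Those labelled TAZ4SA overlapped EV (log2 -1.19, SE 0.35, edgeR adjusted p = 0.00749), and this call was lost without TAZ4SA replicate 1 (log2 -0.94, edgeR adjusted p = 0.0506). TAZ-CAMTA1 kept 24, 24 and 22 counts and was 2.45-fold above the libraries labelled TAZ4SA (edgeR adjusted p = 0.00284). YAP-TFE3, with 19, 18 and 23 counts, was 2.05-fold above YAP5SA (edgeR adjusted p = 0.0207), a call lost without YAP5SA replicate 1 or 3 (log2 0.90 and 0.99, edgeR adjusted p = 0.0782 and 0.0605). EVsub, at 0.337 ± 0.064 CPM, was 2.14-fold below EV (edgeR adjusted p = 0.0143), which was lost without EV replicate 1 or 2 (log2 -1.0 and -0.92, edgeR adjusted p = 0.051 and 0.0765). The profile nearest to ALDH1A2 was that of the receptor tyrosine kinase ROR1, at 0.20 log2 units, with 13.2 CPM in YAP5SA and 32.7 in TAZ-CAMTA1. Exons of ALDH1A2 overlap 2 genes on the other strand.

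ALDH1A3 was higher below confluence, and RDH10 was the third gene nearest to it in profile, at 0.45 log2 units. ALDH1A3 stood at 2.78 ± 0.310 CPM in EV, 4.05 ± 1.10 in EVsub and 6.53 ± 1.57 in CAMTA1. EVsub and EV overlapped, and the rise of EVsub (log2 0.57, SE 0.20, edgeR adjusted p = 0.0283) was lost without EV replicate 1 or 2 or EVsub replicate 1 or 3 (log2 0.34 to 0.58, edgeR adjusted p = 0.0576 to 0.234), and CAMTA1 against EVsub gave log2 0.69 (SE 0.19) with an edgeR adjusted p of 0.0575, which passed with DESeq2 (adjusted p = 0.0271), with either other filter, and without CAMTA1 or EVsub replicate 3 (edgeR adjusted p = 0.0171 and 0.0224). YAP-TFE3 held the least, 2.08 ± 0.392 CPM. It was 1.6-fold below YAP5SA (edgeR adjusted p = 0.00795; log2 -0.54 and 0.0504 without YAP-TFE3 replicate 1) and 1.47-fold below TAZ-CAMTA1 (edgeR adjusted p = 0.0289; 0.0543 to 0.135 without TAZ-CAMTA1 or YAP-TFE3 replicate 1 or 2). ALDH1A3 shares exonic bases with 1 gene on each strand.

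STRA6, the retinol transporter, was lowest in YAP5SA. Its CPM were 18.0, 14.6 and 15.6 in EV, 6.42, 6.90 and 3.98 in YAP5SA, and 12.4, 9.53 and 6.21 in the libraries labelled TAZ4SA, and neither of these groups overlapped EV. The fall in YAP5SA was 2.81-fold (log2 -1.49, SE 0.25, edgeR adjusted p = 3.29e-05). That in the libraries labelled TAZ4SA was 1.72-fold (log2 -0.78, SE 0.24, edgeR adjusted p = 0.00884) and was lost without TAZ4SA replicate 3, the lowest of the group (log2 -0.55, edgeR adjusted p = 0.0661). YAP-TFE3, at 12.2, 14.0 and 7.26 CPM, exceeded YAP5SA 1.94-fold (edgeR adjusted p = 0.00244). It was 1.48-fold below TFE3 with overlapping libraries (edgeR adjusted p = 0.0466), a call lost without TFE3 replicate 1 or 2 or YAP-TFE3 replicate 1 or 3 (log2 -0.33 to -0.63, edgeR adjusted p = 0.0552 to 0.236). EVsub was 1.54-fold below EV (edgeR adjusted p = 0.0398), a call lost without any 1 EV library or EVsub replicate 1 or 3 (log2 -0.53 to -0.69, edgeR adjusted p = 0.0522 to 0.138). TAZ-CAMTA1, at 13.3 ± 2.56 CPM, differed from EV by -0.28 on the log2 scale (SE 0.23), which did not pass the test. STRA6 overlaps an exon of CCDC33 on the other strand.

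CRABP2, the carrier of retinoic acid, was by far the most abundant of the 10 per kilobase of exon. Its group means ran from 64.5 to 129 CPM per kilobase, against 2.29 to 5.43 for RARB, 1.48 to 3.69 for RDH10, 0.752 to 2.26 for STRA6 and 1.90 for DHRS9 in YAP-TFE3. Below them came CYP26B1 (0.253 to 1.97) and ALDH1A3 (0.391 to 1.22), while DHRS3 did not exceed 0.384 and ALDH1A2 did not exceed 0.0987. By group mean CRABP2 was lowest in YAP-TFE3, with 63.5, 72.1 and 73.9 CPM, and stood at 119, 125 and 102 in EV. YAP-TFE3 was 1.54-fold below TAZ-CAMTA1 (log2 0.63 for TAZ-CAMTA1, SE 0.19, edgeR adjusted p = 0.0113), lost without TAZ-CAMTA1 replicate 1 (log2 0.51, edgeR adjusted p = 0.0678). Against TFE3 it was 1.40-fold lower (edgeR adjusted p = 0.0405), lost without TFE3 or YAP-TFE3 replicate 1 or 2 (log2 -0.41 to -0.51, edgeR adjusted p = 0.07 to 0.13). Replicate 3 was the lowest library for CRABP2 in EV, CAMTA1, TAZ-CAMTA1 and TFE3, but not in EVsub or YAP-TFE3. The libraries labelled TAZ4SA (97.3, 99.1 and 58.2 CPM) and YAP5SA (95.6, 105 and 52.7) each had a low replicate 3 too. Against EV they gave log2 -0.44 and -0.45 (SE 0.19 for both), with edgeR adjusted p = 0.0613 and 0.063, and did not pass the test. Both passed with total-count scaling (log2 -0.65, edgeR adjusted p = 0.00426 and 0.00499), with no filter beyond 1 count (edgeR adjusted p = 0.000352 and 0.000326) and with only the groups compared (edgeR adjusted p = 0.0258 and 0.0482). They also passed without TAZ4SA replicate 1 or 2 (edgeR adjusted p = 0.0467 and 0.0387) and without YAP5SA replicate 2 (edgeR adjusted p = 0.0194).

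RARB, a retinoic acid receptor and the standard readout of retinoic acid signalling, fell in YAP5SA and the libraries labelled TAZ4SA, whereas its difference in TAZ-CAMTA1 did not pass the test. Its CPM were 48.6, 47.2 and 42.2 in EV, 29.6, 26.1 and 23.8 in YAP5SA and 23.7, 21.9 and 19.2 in the libraries labelled TAZ4SA. In TAZ-CAMTA1 they were 50.9, 51.4 and 43.9, and in YAP-TFE3 37.3, 38.7 and 46.8. The YAP5SA libraries overlapped no other group, and neither did those labelled TAZ4SA, but these groups nearly met, at 23.8 and 23.7 CPM. The fall against EV was 2.13-fold in the libraries labelled TAZ4SA (log2 -1.09, SE 0.11, edgeR adjusted p = 1.92e-08) and 1.74-fold in YAP5SA (log2 -0.80, SE 0.11, edgeR adjusted p = 2.37e-06). TAZ-CAMTA1 was 2.26-fold above the libraries labelled TAZ4SA (log2 1.17, SE 0.11, edgeR adjusted p = 5.42e-09), and YAP-TFE3 was 1.55-fold above YAP5SA (log2 0.63, SE 0.11, edgeR adjusted p = 3.81e-05). TAZ-CAMTA1 itself lay at 0.08 of EV on the log2 scale (SE 0.11), YAP-TFE3 at -0.17 of EV, TFE3 at 0.02 of EV and CAMTA1 at -0.05 of EVsub (SE 0.11). YAP-TFE3 against TFE3 gave -0.19 (SE 0.11, edgeR adjusted p = 0.144), and with total-count scaling -0.29 (edgeR adjusted p = 0.0204) or without YAP-TFE3 replicate 3 -0.30 (edgeR adjusted p = 0.0265). All 4 calls held without any 1 library. The nearest profiles were those of TTC3, CEP126 and FMR1, at 0.13, 0.18 and 0.18 log2 units. TTC3 stood at 118 CPM in the libraries labelled TAZ4SA, 140.0 in YAP5SA and 231 to 289 in the other groups.

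RARB is the gene in which a retinoic acid response element is best known, and its promoter is shown for that reason. RefSeq gives RARB 4 windows, and the third holds the only DR5 match among the 22 windows of these genes; 61 of all 35116 promoters hold such a repeat. Its 150 bases before the start, on the plus strand of GRCh38.p14, are given with the repeated letters in capitals.
RARB, chr3:25428113-25428262: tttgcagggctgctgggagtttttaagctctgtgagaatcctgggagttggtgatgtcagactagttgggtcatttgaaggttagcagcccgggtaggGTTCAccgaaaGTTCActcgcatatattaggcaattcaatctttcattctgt
The other RARB windows include 2 with a TEAD match, and no window of the 22 held an E-box, an M-box or a DR2. The match begins 52 bases before the start and describes the sequence alone.

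CYP26B1, which clears retinoic acid, was lowest in YAP-TFE3 and highest in CAMTA1. The counts were 41, 44 and 33 in YAP-TFE3, against 86, 97 and 62 in EV, 99, 110 and 94 in YAP5SA, and 111, 109 and 65 in TFE3. No library of another group reached down to YAP-TFE3, which held 1.22 ± 0.234 CPM. It was 3.72-fold below YAP5SA (log2 -1.90, SE 0.24, edgeR adjusted p = 3.26e-07), 2.37-fold below TFE3 (log2 -1.24, SE 0.24, edgeR adjusted p = 0.000123) and 3.36-fold below TAZ-CAMTA1 (edgeR adjusted p = 1.52e-06). Against EV, at 3.22 ± 0.409 CPM, it was 2.64-fold lower. Below confluence the gene was higher, with 5.57 ± 0.967 CPM in EVsub (log2 0.80 against EV, SE 0.21, edgeR adjusted p = 0.00473) and 9.56 ± 1.66 in CAMTA1 (log2 0.77 against EVsub, SE 0.20, edgeR adjusted p = 0.039). The CAMTA1 call was lost in 5 of 6 fits without a library, namely without CAMTA1 replicate 1 or 2 or any EVsub library (log2 0.62 to 0.89, edgeR adjusted p = 0.06 to 0.256). The other 4 calls of CYP26B1 held without any 1 library. COLEC12, a scavenger receptor, had the closest profile, at 0.56 log2 units, with 29.0 CPM in YAP-TFE3 and 198 in CAMTA1.

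**Figure D3:**
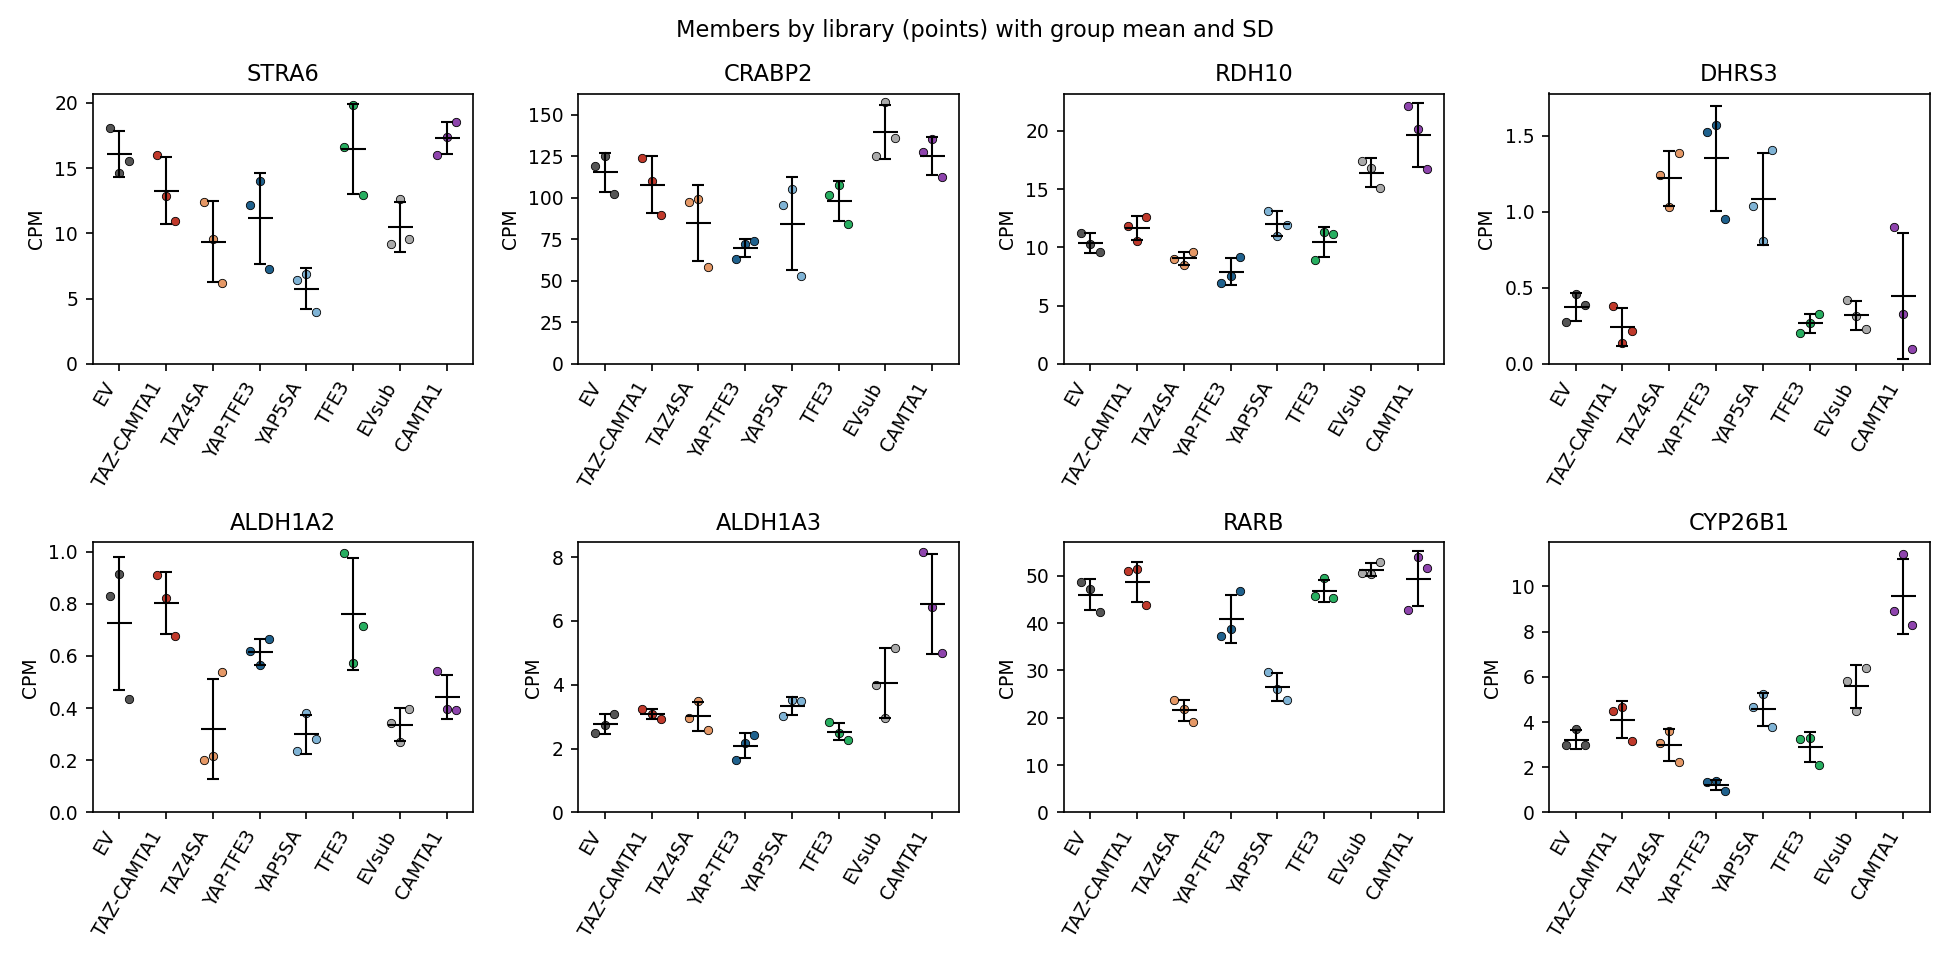
TMM-scaled CPM of the 8 tested genes in each library (points, 3 a group, y axes from 0) with group mean and SD (bars). RARB lies lowest in the libraries labelled TAZ4SA (19.2 to 23.7) and YAP5SA (23.8 to 29.6), and CYP26B1 lowest in YAP-TFE3 (0.954 to 1.38).

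The wider pathway was read from 5 lists with 53 genes, 43 of them tested. In TAZ-CAMTA1 against EV, 6 of the 43 rose and none fell (median log2 0.12, against 0.00 over all genes tested), and the count was 3 without EV replicate 1. They included the cellular retinol-binding protein RBP7, the reductase AKR1B10, the coactivator NCOA3, CD38 and RARRES2. Over all genes tested, 3.55% rose and 1.44% fell in that comparison. In the libraries labelled TAZ4SA 7 rose (25.1% of all genes) and 20 fell (24.2%), with a median of -0.35 against -0.03 over all genes. In YAP5SA 6 rose (22.7%) and 16 fell (21.6%), with a median of -0.20 against -0.04. In TAZ-CAMTA1 against the libraries labelled TAZ4SA, 26 were higher (26.9%) and 7 lower (26.8%). For YAP-TFE3 the split was 19 higher (28.1%) and 7 lower (24.3%) against YAP5SA, and 13 higher (25.4%) and 13 lower (22.5%) against TFE3. In TFE3 against EV edgeR and DESeq2 called none of the 43, and 1 had an unadjusted p under 0.05. In CAMTA1 against EVsub 3 were called: SDR16C5 and RARRES1 rose (1.26% of all genes) and RARRES2 fell (0.570%), and the count was 1 without CAMTA1 replicate 2 or EVsub replicate 1 or 2. Growth state, in EVsub against EV, gave 4 higher (19.8%) and 9 lower (17.1%), and TAZ-CAMTA1 against YAP-TFE3 gave 10 higher (19.9%) and 8 lower (22.8%).

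Genes that textbooks list as induced by retinoic acid, 12 with 10 tested, were counted in each comparison. The list leaves out the genes followed above, such as RARB, so its counts are not the whole response. In the libraries labelled TAZ4SA, 7 of the 10 fell (24.2% of all genes) and 2 rose (25.1%) against EV, with a median log2 of -0.95. PDK4, a brake on pyruvate oxidation, fell most, from 5.63 ± 1.08 to 0.632 ± 0.089 CPM (log2 -3.14, SE 0.35, edgeR adjusted p = 8.81e-08). In YAP5SA 7 fell (21.6%) and 2 rose (22.7%), with a median of -0.86, and PDK4 again fell most (log2 -2.77, SE 0.34, edgeR adjusted p = 4.48e-07). TAZ-CAMTA1 had 9 higher (26.9%) and 1 lower (26.8%) than the libraries labelled TAZ4SA, with a median of 1.05. YAP-TFE3 had 5 higher (28.1%) and 4 lower (24.3%) than YAP5SA (median 0.25), and 3 higher (25.4%) and 5 lower (22.5%) than TFE3 (median -0.62). TAZ-CAMTA1 had 3 higher (3.55%) and 0 lower (1.44%) than EV, and 5 higher (19.9%) and 1 lower (22.8%) than YAP-TFE3. EVsub had 3 lower than EV (17.1%), namely PDK4, CD38 and MEIS1, and 0 higher (19.8%), and CAMTA1 had 1 in each direction against EVsub (1.26% and 0.570%).

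Among the 3 other clearance enzymes, CYP26A1, the inducible retinoic acid hydroxylase, had its lowest group mean in YAP-TFE3. CYP26A1 is also in the retinoic acid induced list, so its calls below are already counted there. Its CPM were 1.51 ± 0.199 in YAP-TFE3, 2.57 ± 0.630 in YAP5SA, 2.42 ± 0.905 in the libraries labelled TAZ4SA and 4.61 ± 1.06 in EV. The fall against EV passed the test in the libraries labelled TAZ4SA (log2 -0.94, SE 0.26, edgeR adjusted p = 0.00443) and YAP5SA (log2 -0.85, SE 0.26, edgeR adjusted p = 0.0102), where CYP26B1 gave log2 -0.12 and 0.49 and did not pass the test. The latter value of CYP26B1 passed with no filter beyond 1 count, with only the groups compared and without YAP5SA replicate 3 (edgeR adjusted p = 0.0375 to 0.0464). CYP1B1, which also oxidises retinoids, fell in both of these comparisons (log2 -2.34 and -2.08), and CYP26C1 rose in the former (log2 0.87). The CYP1B1 counts were 19, 20 and 19 in EV, 3, 1 and 7 in the libraries labelled TAZ4SA, and 8, 1 and 3 in YAP5SA. The last 2 groups lay around the floor of 3, so fold changes against them are uncertain in size. In YAP-TFE3 against YAP5SA, CYP1B1 was higher (log2 1.47) and CYP26A1 lower (log2 -0.75). In YAP-TFE3 against TFE3 all 3 were lower (22.5% of all genes), CYP26A1 most (log2 -1.80, SE 0.26, edgeR adjusted p = 4.03e-06), followed by CYP1B1 and CYP26C1. In TAZ-CAMTA1 against YAP-TFE3 all 3 were higher (19.9%).

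The uptake, binding and storage list held 8 genes, 6 tested. RBP7, a retinol-binding protein of fat and endothelium, made the largest rise of any list gene in YAP5SA, with 25.9, 23.3 and 23.2 CPM against 1.73, 2.09 and 1.84 in EV (log2 3.68, SE 0.15, edgeR adjusted p = 2.82e-15). Libraries labelled TAZ4SA held 11 ± 0.95 CPM (log2 2.55, SE 0.15, edgeR adjusted p = 2.24e-12). YAP-TFE3 had 3.65 ± 0.385 CPM, below YAP5SA by 2.72 on the log2 scale (edgeR adjusted p = 9.39e-14), and TAZ-CAMTA1 had 2.85 ± 0.212. RBP5 fell against EV, by log2 -0.99 for the libraries labelled TAZ4SA and -0.86 for YAP5SA.

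Other oxidoreductases of retinol and retinal, 20 with 15 tested, had 5 higher (28.1% of all genes) and 1 lower (24.3%) in YAP-TFE3 against YAP5SA. AKR1C3, an aldo-keto reductase of retinal and steroids, stood at 10.9, 12 and 9.31 CPM in YAP-TFE3 and at 0.283, 0.143 and 0.120 in YAP5SA (log2 5.87, SE 0.36, edgeR adjusted p = 2.41e-12), and at 1.37 ± 0.402 in TFE3 (log2 2.96, edgeR adjusted p = 8.81e-10). The AKR1C3 counts in YAP5SA were 6, 3 and 3, at or close to the floor of 3, so the log2 of 5.87 is uncertain in size. Near-identical paralogs exist for AKR1C3 and AKR1B10, and how shared reads were counted is not given in the sources used here, so these values are uncertain. Receptors and cofactors, 11 with 10 tested, gave 5 lower (24.2% of all genes) and 2 higher (25.1%) in the libraries labelled TAZ4SA and 4 lower (21.6%) and 1 higher (22.7%) in YAP5SA against EV. The coregulators NRIP1, NCOA2 and NCOA1 and the receptor RXRA were those that fell in YAP5SA.

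**Figure D4:**
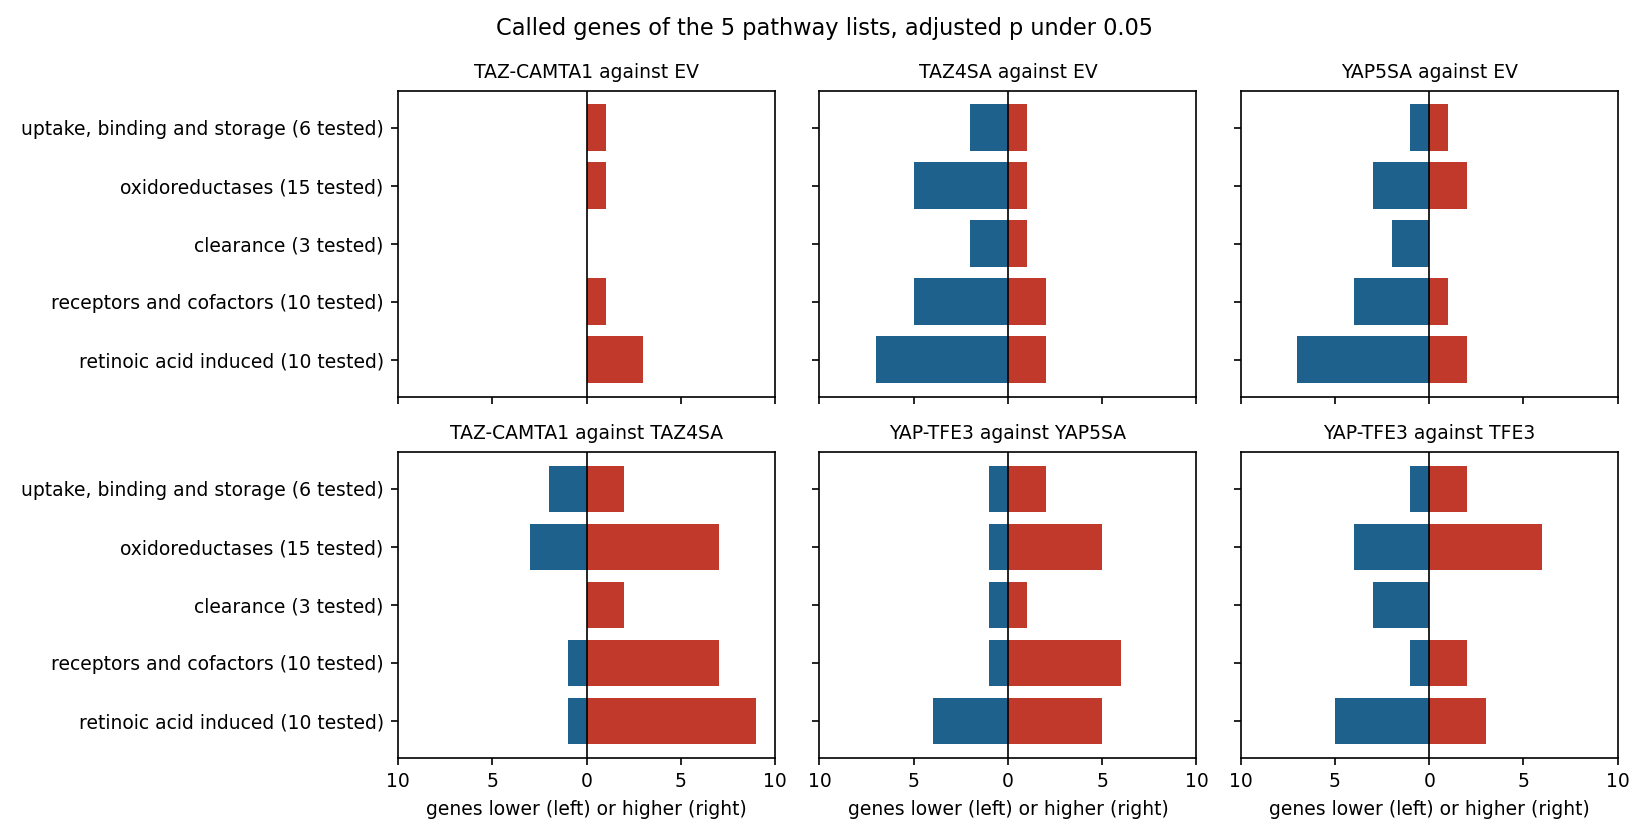
Number of genes in each of 5 pathway lists (rows, with the number tested) that were lower (blue, to the left) or higher (red, to the right) at an adjusted p under 0.05 in 6 comparisons (panels). The retinoic acid induced list has 7 lower and 2 higher in YAP5SA as in the libraries labelled TAZ4SA, and 9 higher and 1 lower in TAZ-CAMTA1 against the latter.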

How the data were processed

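RNA-seq of 24 SW872 libraries, 3 in each of 8 groups, was used. The authors aligned poly(A)-selected, stranded reads to hg38 with Hisat2 within bcbio-nextgen and deposited unnormalised counts per Ensembl gene; the submitters' processing notes also name bcl2fastq. The paper also describes pseudo-alignment with Salmon and conversion to gene-level counts with tximport. Which route gave the deposited counts, with its strand setting and treatment of shared reads, is not given in the sources used here.

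Groups came from the sample titles. Genes averaging at least 5 counts were kept, 19997 of 60279. Main tests were edgeR 4.0.16 quasi-likelihood fits in R 4.3.3 with TMM scaling, all 24 libraries and 1 mean per group, with Benjamini-Hochberg adjustment (threshold 0.05); SE is the absolute log2 fold change over the root of F. Alternatives were DESeq2 1.42.0 (size factors, test), total-count scaling, other filters, a replicate block, only the groups compared, and leaving out each library. CPM were TMM-scaled. A floor of 3 counts per library stood for 0. Totals ran from 19700277 to 35287476 counts, and counting intervals are 95%. The scripts were tested on simulated counts.

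The members and lists were chosen with earlier results of these data known. Named list genes were, per comparison, the largest called rise and fall, and any called gene where at most 5 of its list were called. The genes nearest in profile were the 3 with the smallest Euclidean distance between centred log2 group means. RefSeq promoters matched 9 of the 10 members. Values of some list genes are not reported here, though they are in the counts of their lists.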

Additional observations from a re-analysis of the deposited data

How the results depend on the processing

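TAZ4SA stands here for the libraries so labelled. No called log2 fold change of the 8 tested genes changed sign under any alternative run, and each comparison's count of calls among them changed by at most 1.5 times except as follows. Raising the filter to a mean of 20 counts left 6 of the 8 genes, without DHRS3 and ALDH1A2, and gave 2 calls in place of 4 in TAZ4SA against EV, in YAP5SA against EV and in TAZ-CAMTA1 against TAZ4SA. Total-count scaling gave 7 in place of 4 in TAZ-CAMTA1 against TAZ4SA and, as a description only, in YAP-TFE3 against EV. In CAMTA1 against EVsub the 1 call became 3 with no filter beyond 1 count and 2 with the filter at 20, with DESeq2 or with only the groups compared, and 0 to 2 without a library (0 without CAMTA1 or EVsub replicate 1 or 2, 2 without CAMTA1 replicate 3). In YAP-TFE3 against TFE3 the 5 became 3 with only the groups compared (RDH10 edgeR adjusted p = 0.0872, STRA6 0.104) and 2 to 5 without a library (2 without TFE3 replicate 2 or YAP-TFE3 replicate 1, 3 without TFE3 replicate 1 or YAP-TFE3 replicate 2). Without a library, EVsub against EV ran from 2 (without EV replicate 1 or 2; 3 without EVsub replicate 1 or 3) to 5, and TAZ-CAMTA1 against YAP-TFE3 from 3 (without TAZ-CAMTA1 replicate 1) to 6. In EVsub against EV, CRABP2 was gained with no filter beyond 1 count (edgeR adjusted p = 0.0273) and with only the groups compared (edgeR adjusted p = 0.0324). RDH10 in TAZ-CAMTA1 against TAZ4SA gave an edgeR adjusted p of 0.0505 with no filter beyond 1 count. The causes were not tested.

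Over all genes tested, same-numbered replicates did not deviate together (mean correlations -0.0962 to 0.129; 0 of 11 comparisons had every pair over 0.1), so the numbers were not taken as pairs. These correlations do not tell whether single genes share a replicate effect. CRABP2 was lowest in replicate 3 in every group but EVsub and YAP-TFE3, and CYP26B1 in every group but EV and EVsub. With the replicate block 7 of 80 results on the 8 genes were gained and 0 lost: CRABP2 in TAZ4SA against EV and CRABP2 and CYP26B1 in YAP5SA against EV (edgeR adjusted p = 0.0129, 0.012 and 0.0288), 3 genes in TAZ-CAMTA1 against TAZ4SA (7 calls in place of 4) and STRA6 in CAMTA1 against EVsub (2 in place of 1).

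Over all genes, calls in TAZ-CAMTA1 against EV fell from 996 to 545 without EV replicate 2 and to 556 without TAZ-CAMTA1 replicate 3. In TFE3 against EV they went from 7 to 40 with no filter beyond 1 count, 15 with DESeq2, 2 with only the groups compared and 1 to 12 without a library (1 without EV replicate 1 or 2 or TFE3 replicate 3, 12 without TFE3 replicate 2). In CAMTA1 against EVsub they went from 366 to 652 with no filter beyond 1 count, 648 with only the groups compared and 177 to 233 without CAMTA1 replicate 1 or 2 or any 1 EVsub library. Total-count scaling also moved the split of higher and lower calls in CAMTA1 against EVsub (252 and 114 to 222 and 169), EVsub against EV (3956 and 3412 to 3109 and 4286), YAP-TFE3 against TFE3 (5089 and 4503 to 4221 and 5702) and TAZ-CAMTA1 against YAP-TFE3 (3970 and 4564 to 5098 and 3762). DHRS3 and ALDH1A2 rest on 2 to 50 counts per library, and ALDH1A1 on 0 to 7.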

Other observations

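Genes next to DHRS9, within 500000 bases on either side on chromosome 2, were looked at after the DHRS9 counts were known and are given as levels with no test. CERS6, a ceramide synthase, stood at 45.7 ± 5.51 CPM in YAP-TFE3 and 23.5 ± 2.74 in EV. LRP2, the endocytic receptor megalin, stood at 1.35 ± 0.186 and 0.406 ± 0.113, and BBS5 at 10.2 and 7.05. NOSTRIN had 5.89 against 9.33 CPM and SPC25, a kinetochore subunit, 4.49 against 13.2. Other counted neighbours lay closer to EV: FASTKD1 stood at 19.3 ± 2.54 CPM in YAP-TFE3 and 23.8 ± 2.59 in EV, and PPIG at 43.0 ± 14.4 and 39.9 ± 6.84. KLHL41 was low in both, at 0.282 ± 0.127 and 0.352 ± 0.185. G6PC2, which lies within the span of SPC25 on the other strand, and ABCB11, which lies between SPC25 and DHRS9, never passed 2 counts in any library.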
